A study of Saccharomyces cerevisiae with 6 samples.

Results

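The 36 genes described here encode the machinery that builds, divides and supplies the peroxisomes of budding yeast, together with the enzymes of fatty acid beta-oxidation inside them. They were chosen by name, as PEX and INP genes and genes of beta-oxidation, and not by their values. All 36 were measured among the 5449 yeast genes with a named probe set, each by 1 probe set. RNA came from 3 cultures of a vps1 deletion strain, labelled Y05072, and 3 cultures of the wild type strain BY4741, a laboratory strain of mating type a that carries auxotrophic markers. The series design calls the 3 cultures of each strain independent biological replicates. Both strains grew at 30 degrees in supplemented minimal medium, with no other agent named in the labels, and total RNA was hybridised to Affymetrix arrays with 1 array per culture. The labels name 1 deletion strain, so the differences from BY4741 are those of that strain.

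Yeast peroxisomes are the sole site of fatty acid beta-oxidation in this organism, and their matrix proteins are imported folded from the cytosol. New peroxisomes form by growth and fission of existing ones or from the endoplasmic reticulum. Fission needs the Pex11 family to elongate the membrane and the dynamin-related GTPases Vps1 and Dnm1 to cut it, and cells without Vps1 are known for few, enlarged peroxisomes. Beta-oxidation genes are known to be induced by oleate through the Oaf1-Pip2 factor and Adr1, and repressed by glucose. The arrays compare transcripts of this organelle's genes between a strain that lacks this dynamin and wild type.

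As deposited, the arrays of the vps1 deletion strain lay above those of wild type over the whole range, with a median log2 difference of 0.51 over the 5449 genes and 0.48 over 1746 probe sets whose names match no yeast gene. All levels and differences below are therefore on values quantile normalised over the 6 arrays (the quantile scale, log2), on which all genes had a median difference of -0.041; differences as deposited are named as such. A difference is vps1 deletion minus wild type. A gene passed if its adjusted p in limma's moderated test was under 0.05 after Benjamini-Hochberg adjustment over all genes. The VPS1 signal was 2.54, 2.40 and 2.23 in the deletion strain, below background on every array, against 10.32, 9.98 and 9.95 in wild type. Arrays correlated over genes at 0.991 to 0.995 within the deletion strain, at 0.985 to 0.994 within wild type and at 0.964 to 0.975 between strains. The background level, the 95th percentile of the 1746 unmatched probe sets, lay between 3.53 and 3.59, and all 36 peroxisome genes were above it on all 6 arrays. The median SE of a difference was 0.11 over the 36 genes and 0.12 over all genes.

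Few peroxisome genes passed the test. POT1, the ketoacyl-CoA thiolase that completes each turn of beta-oxidation, rose by 0.90 ± 0.15 (log2, SE, n = 3 per strain), and PEX2, a RING subunit of the ubiquitin ligase of the import machinery, fell by 0.50 ± 0.12. The other 34 genes did not pass. The 2 calls are 5.56% of the 36 genes, against 13.0% of all genes tested, with 6.77% of all genes higher and 6.28% lower. No peroxisome gene passed with a difference of 2-fold or more, which 2.92% of all genes did. An unadjusted p under 0.05 was found for 10 of the 36 genes (27.8%), close to the 28.9% of all genes. The median difference of the 36 genes was -0.0024, with 18 above 0 and 18 below it. In RNA of whole cultures, a change in the share of cells that express a gene and a change in RNA per cell cannot be told apart.

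The intervals of the differences limit how large a change these arrays could have missed. For 33 of the 34 genes that did not pass, the 95% interval lay between -1 and 1 on the log2 scale, which is a change under 2-fold in either direction, and for 20 of them it lay between -0.5 and 0.5. The exception to the first limit was INP1, with an interval of -1.01 to -0.15. Of all 5449 genes, passing or not, 4967 met the first limit and 2850 the second, against 34 and 20 of the 36. The 33 genes include POX1, whose signal lay near background, where a log2 difference can understate the change. These limits hold relative to the shift between strains. On the values as deposited 29 of the 36 genes passed, all higher in the deletion strain (80.6%, against 77.0% of all genes in either direction and 76.0% higher), and their median difference was 0.58 against 0.51 for all genes.

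**Figure D1:**
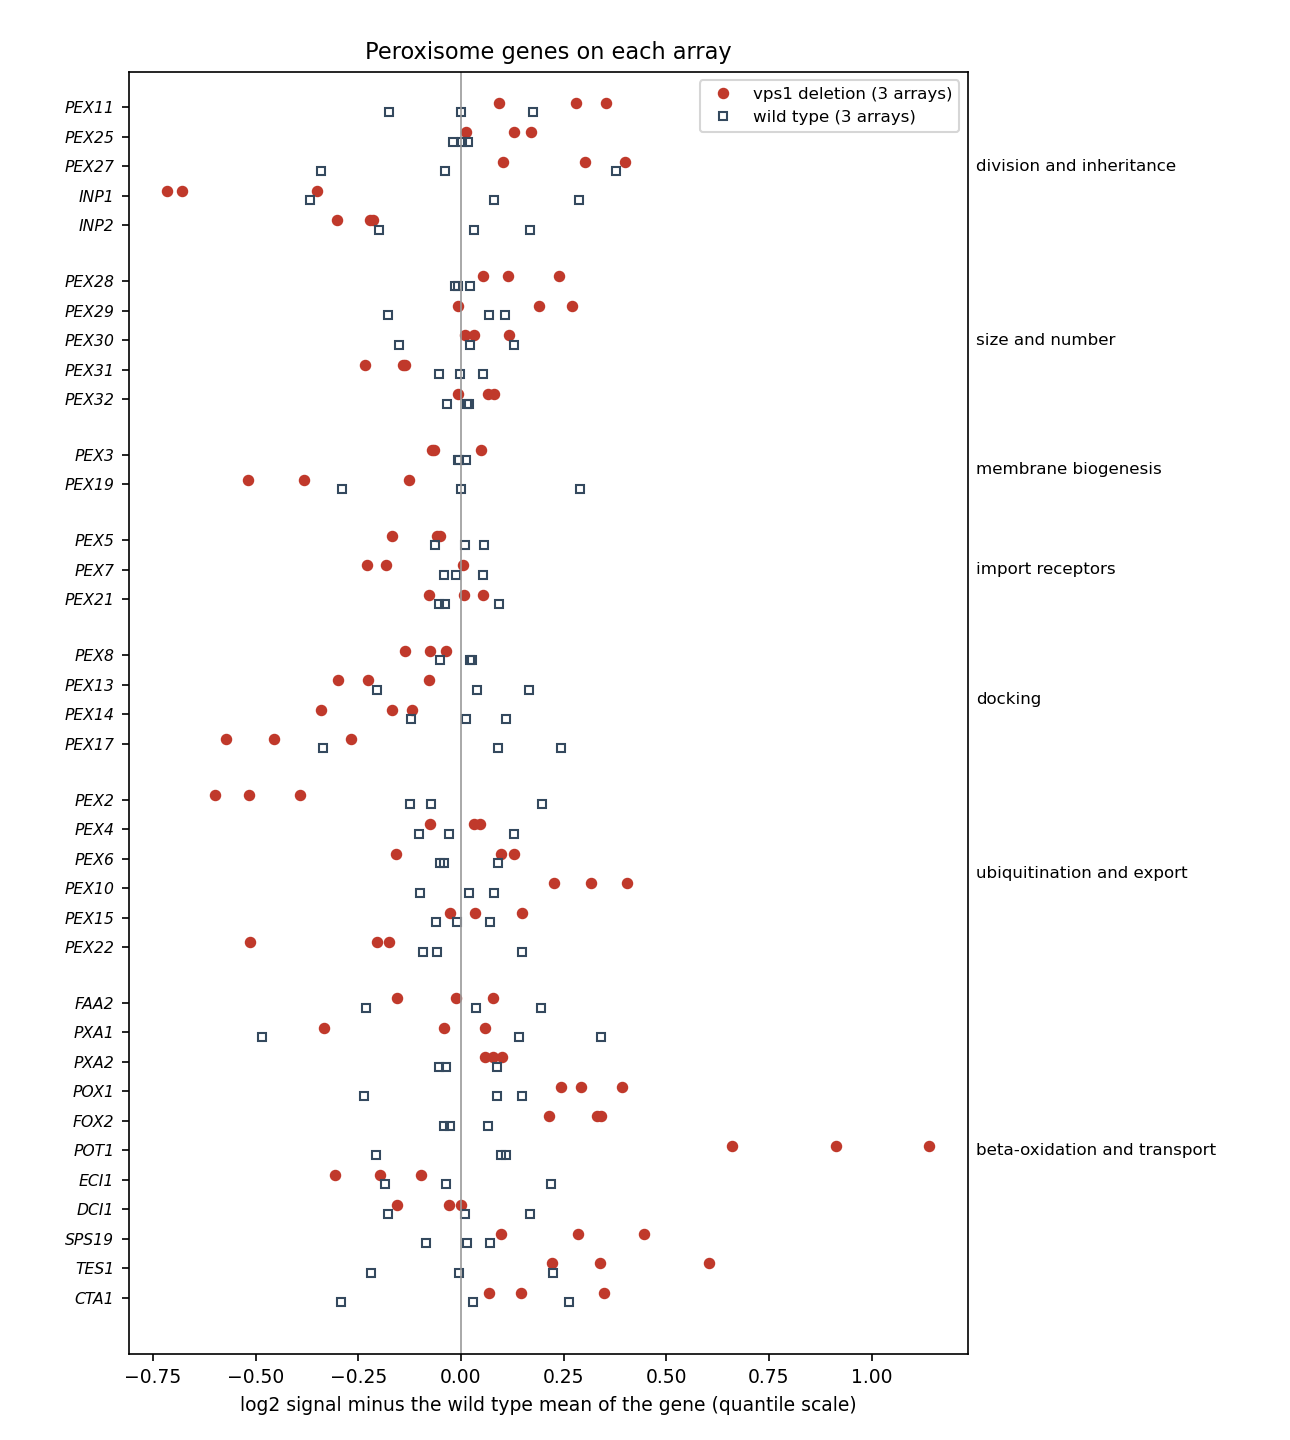
Each point is the log2 signal of a gene on 1 array minus the wild type mean of that gene, on the quantile scale, for 3 vps1 deletion arrays (filled circles) and 3 wild type arrays (open squares), with genes ordered by role. The 3 deletion arrays stand apart from wild type for 10 of the 36 genes, among them POT1 to the right and PEX2 to the left. The arrays of the strains overlap for the other 26 genes. Of all genes 33.9% have no overlap.

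The same replicate numbers occur in both strains, and arrays of the same number deviated together from their strain means, so replicate number was added to the fit as a block. In this blocked fit 10 of the 36 genes passed, 27.8%, against 30.8% of all genes. Higher were POT1, FOX2, POX1, SPS19 and TES1 of beta-oxidation and PEX10 (6 genes; 14.4% of all genes were higher). Lower were PEX2, INP1, PEX17 and PEX19 (4 genes; 16.4% of all genes were lower). The arrays of the strains did not overlap for 10 of the 36 genes (27.8%, against 33.9% of all genes), with 6 higher, against 15.0% of all genes, and 4 lower, against 19.0%. By each of these counts the share of peroxisome genes was below or near that of all genes.

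Division of peroxisomes depends on PEX11, PEX25 and PEX27, a family of related membrane proteins that elongate and proliferate the organelle. PEX11 was at 10.74, 10.66 and 10.48 in the vps1 deletion strain, against 10.38, 10.56 and 10.21 in wild type. Its highest deletion arrays lay above wild type but the groups overlapped, and its difference of 0.24 ± 0.12 did not pass (adjusted p = 0.242; 95% interval -0.045 to 0.53). PEX25 was at 10.11, 10.23 and 10.27 in the deletion strain, against 10.12, 10.08 and 10.10 in wild type, with a difference of 0.10 ± 0.088 (adjusted p = 0.492). PEX27, at 7.91, 8.21 and 8.11 in the deletion strain against 7.47, 7.77 and 8.19 in wild type, had a wide spread between wild type arrays (SD 0.36) and a difference of 0.27 ± 0.18 (adjusted p = 0.386). All 3 family members thus had intervals that include 0, and with the block their adjusted p was 0.0654 for PEX11, 0.356 for PEX25 and 0.128 for PEX27.

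The inheritance genes lay below wild type without passing. INP1, which holds peroxisomes in the mother cell, was at 7.83, 7.51 and 7.47 in the deletion strain, against 8.47, 8.26 and 7.82 in wild type. The highest deletion array lay within the range of wild type, and the difference was -0.58 ± 0.18 (adjusted p = 0.0815, and 0.00588 in the blocked fit); without wild type replicate 3 it passed, at -0.76 (adjusted p = 0.0297). Among all genes this difference ranked at the 3.36th percentile, and as deposited it was -0.015. INP2, the receptor through which the myosin Myo2 pulls peroxisomes into the bud, was at 7.76, 7.67 and 7.75 in the deletion strain, against 8.14, 8.01 and 7.77 in wild type. The groups did not overlap, but the lowest wild type array lay close above the deletion arrays. The difference of -0.25 ± 0.11 did not pass (adjusted p = 0.206, and 0.0919 with the block); as deposited it was above 0, at 0.29. None of the 5 division and inheritance genes passed in limma, and 1 had an unadjusted p under 0.05, against 28.9% of all genes.

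The genes that set peroxisome size and number showed small differences. PEX28, PEX29, PEX30, PEX31 and PEX32 encode related membrane proteins that act at the endoplasmic reticulum and peroxisomes, and all 5 had 95% intervals between -0.5 and 0.5. Their differences ran from -0.17 ± 0.087 for PEX31 to 0.15 ± 0.12 for PEX29, with a median of 0.053, and none had an unadjusted limma p under 0.05. PEX31 was at 8.88, 8.97 and 8.98 in the deletion strain, against 9.17, 9.06 and 9.11 in wild type, and its groups did not overlap. PEX28 also had no overlap, in the opposite direction, with a difference of 0.14 ± 0.09 (adjusted p = 0.372). PEX30 and PEX32 differed by 0.053 ± 0.10 and 0.047 ± 0.084.

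Membrane biogenesis is served by PEX3 and PEX19, the membrane anchor and the soluble receptor that insert peroxisomal membrane proteins. PEX3 was at 9.02, 9.14 and 9.03 in the deletion strain, against 9.08, 9.10 and 9.09 in wild type, a difference of -0.03 ± 0.086 (adjusted p = 0.865; 95% interval -0.23 to 0.17). PEX19 was at 9.29, 9.43 and 9.68 in the deletion strain, against 9.81, 9.52 and 10.10 in wild type. The array of replicate 3 was the highest of its strain in both cases, and the difference of -0.34 ± 0.17 had an adjusted p of 0.226, and 0.0407 with the block, while as deposited it was 0.20.

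The soluble import receptors had narrow intervals around 0. PEX5, the receptor for the type 1 targeting signal carried by most matrix enzymes, was at 8.81, 8.81 and 8.70 in the deletion strain, against 8.92, 8.80 and 8.87 in wild type, a difference of -0.093 ± 0.089 (adjusted p = 0.549). PEX7, the receptor for the type 2 signal that Pot1 carries, was at 9.09, 8.90 and 8.86 in the deletion strain, against 9.14, 9.07 and 9.04 in wild type, a difference of -0.13 ± 0.098 (adjusted p = 0.418). PEX21, a co-receptor of Pex7, differed by -0.0055 ± 0.092. All 3 had 95% intervals between -0.5 and 0.5, and none had an unadjusted limma p under 0.05.

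The docking genes all had negative differences on the quantile scale and positive ones as deposited. PEX13, PEX14 and PEX17 form the docking complex at the membrane, and PEX8 links it to the ubiquitin ligase from the matrix side. The differences were -0.082 ± 0.086 for PEX8, -0.20 ± 0.12 for PEX13, -0.21 ± 0.11 for PEX14 and -0.43 ± 0.16 for PEX17, a median of -0.21 that was 0.34 as deposited, -0.32 with median centring and -0.17 with cyclic loess scaling. None of the 4 passed in limma, and 1 had an unadjusted p under 0.05, against 28.9% of all genes. That gene, PEX17, was at 7.27, 7.39 and 7.58 in the deletion strain, against 7.51, 8.09 and 7.93 in wild type, so its highest deletion array exceeded its lowest wild type array (adjusted p = 0.131, and 0.0212 with the block). It also passed with median centring and without wild type replicate 1.

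Receptor recycling held the sole peroxin call. Pex2 and Pex10 are RING proteins of the same ubiquitin ligase, which marks import receptors for return to the cytosol. PEX2 was at 9.34, 9.14 and 9.22 in the deletion strain, against 9.93, 9.66 and 9.61 in wild type, without overlap. It fell by 0.50 ± 0.12 on the quantile scale (0.706-fold; adjusted p = 0.0322), whereas as deposited its difference was 0.044 ± 0.11, above 0 but below the median of all genes. Leaving out wild type replicate 2 ended the call, at an adjusted p of 0.0765, and so did leaving out any array of the vps1 deletion strain, at 0.0665, 0.0955 and 0.113 for replicates 1, 2 and 3. The differences in these fits were -0.45 to -0.56. In the same fits 5.91% to 8.18% of all genes passed, against 13.0% with all 6 arrays. PEX10 was at 9.57, 9.75 and 9.66 in the deletion strain, against 9.25, 9.43 and 9.37 in wild type, also without overlap. Its difference of 0.32 ± 0.097 did not pass (adjusted p = 0.0761), but did with the block (0.0182).

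The 2 RING genes therefore differed from wild type in opposite directions on the quantile scale. The log2 ratio of PEX10 to PEX2 within an array, which does not depend on a shift common to both, was higher by 0.82 in the deletion strain on the quantile scale and by 0.81 as deposited. Its values did not overlap between strains, which on the quantile scale follows from the lack of overlap of both genes in opposite directions. The exact 2-sided permutation p of 0.1, the smallest that 3 against 3 arrays can give, was fixed by this and adds no support. This pair was chosen after its values were seen. Of the other recycling genes, PEX22, which anchors the ubiquitin-conjugating enzyme Pex4, had a difference of -0.30 ± 0.13 (adjusted p = 0.168) without overlap. PEX4 itself differed by 0.00081 ± 0.099, PEX6, an ATPase of receptor export, by 0.023 ± 0.11, and its membrane anchor PEX15 by 0.052 ± 0.094.

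**Figure D2:**
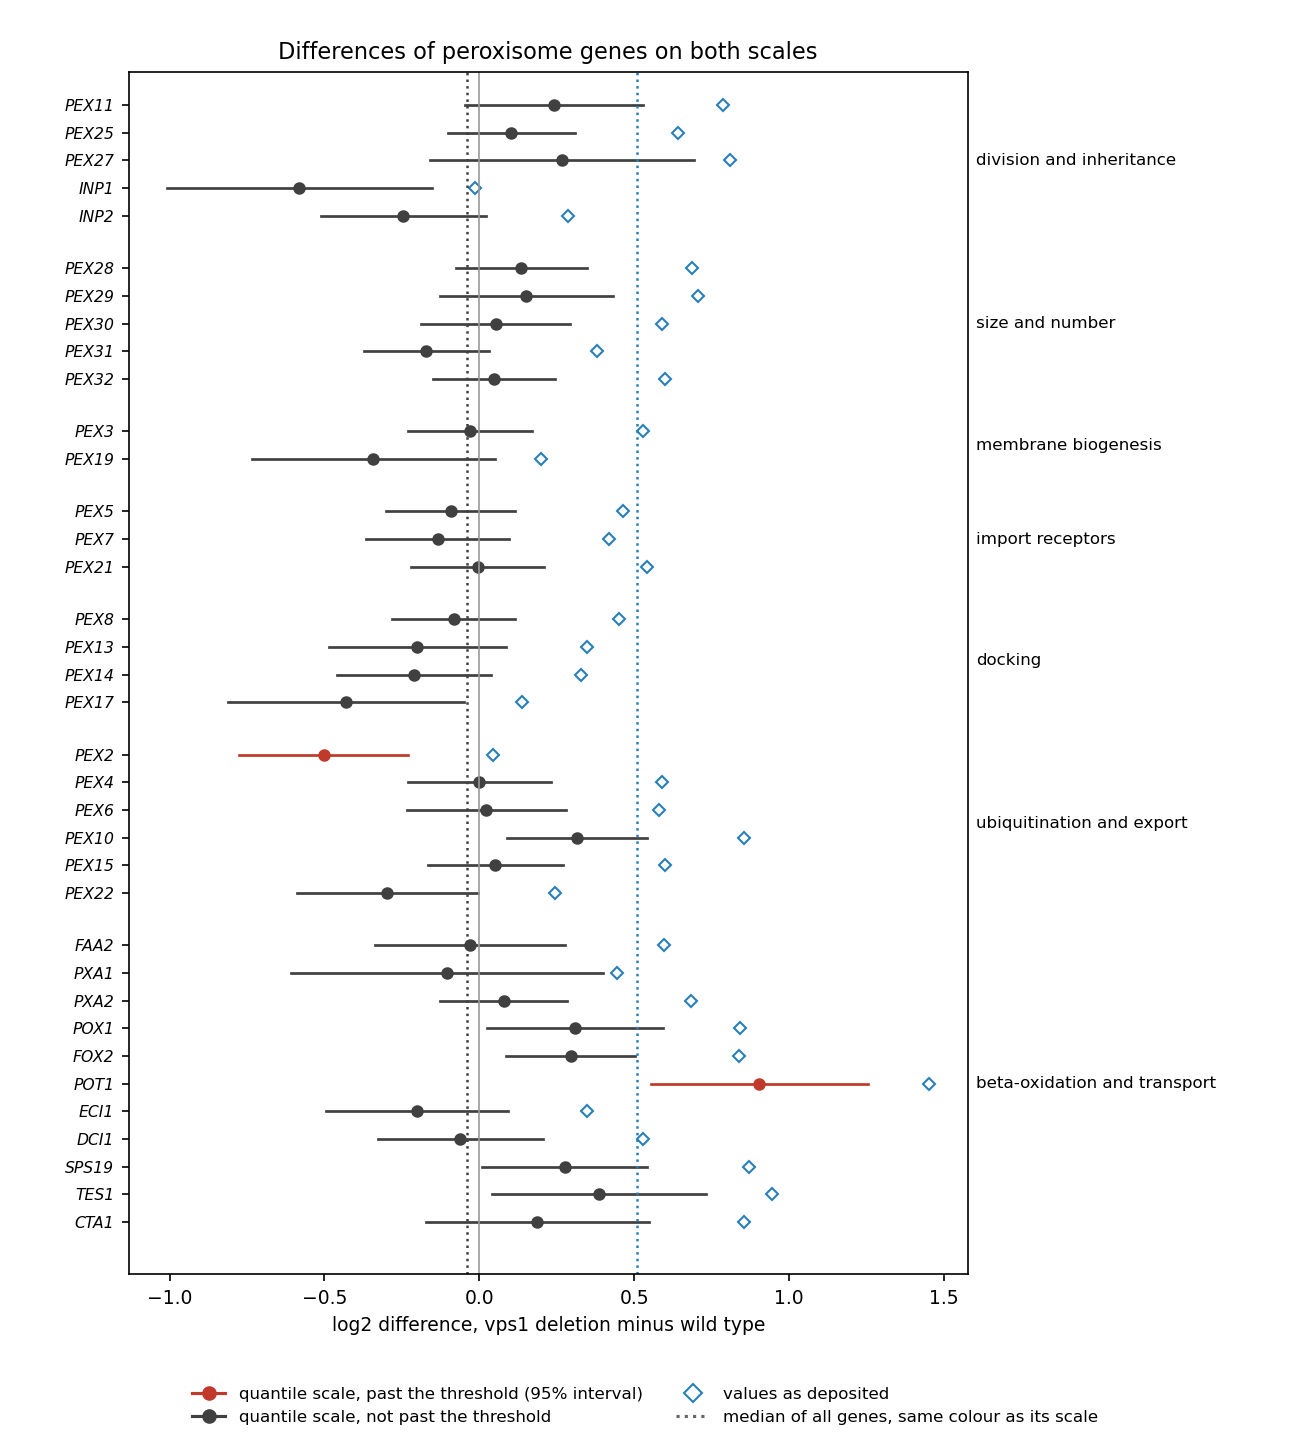
Circles are log2 differences, vps1 deletion minus wild type, of the 36 genes on the quantile scale with their 95% intervals, in red where the gene passed the test; open diamonds are the differences as deposited, and dotted lines mark the median of all genes on each scale. Only the intervals of POT1 and PEX2 belong to genes that passed, and 35 of the 36 diamonds lie above 0.

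Of the 11 genes of beta-oxidation and its transport steps, POT1 alone passed without the block; with it 5 passed, all higher, where 14.4% of all genes were higher. In the order of the pathway, FAA2 activates medium-chain fatty acids, PXA1 and PXA2 form the transporter that brings acyl-CoA into the peroxisome, and POX1, FOX2 and POT1 carry out the oxidase, hydratase-dehydrogenase and thiolase steps. The median difference over the 11 genes was 0.19, with 7 above 0, where 43.2% of all genes were above 0. These 7 were PXA2, POX1, FOX2, POT1, SPS19, TES1 and CTA1. They were also the 7 above 0 with median centring, while 8 were with cyclic loess and all 11 as deposited, where the shift raises nearly every gene. The 95% intervals of 10 of the 11 lay between -1 and 1.

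Activation and transport showed no change past the test. FAA2 differed by -0.03 ± 0.13 (adjusted p = 0.913). PXA1 was at 7.81, 8.20 and 8.10 in the deletion strain, against 7.66, 8.28 and 8.48 in wild type, and its wild type SD of 0.43 gave it the widest interval of the group, -0.61 to 0.40. Its partner PXA2 was at 6.95, 6.91 and 6.93 in the deletion strain, against 6.94, 6.80 and 6.81 in wild type, a difference of 0.079 ± 0.088.

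The core enzymes POX1, FOX2 and POT1 were each higher on all 3 deletion arrays than on any wild type array, as were 15.0% of all genes. Among the 11 genes of the group 4 were so, and for the other 7 the strains overlapped. POX1, the acyl-CoA oxidase, was at 4.53, 4.63 and 4.48 in the deletion strain, against 4.00, 4.38 and 4.32 in wild type, a difference of 0.31 ± 0.12 (adjusted p = 0.144, and 0.0462 with the block). FOX2, the multifunctional enzyme, was at 9.28, 9.40 and 9.41 in the deletion strain, against 9.04, 9.03 and 9.13 in wild type, a difference of 0.29 ± 0.09 (adjusted p = 0.0735, and 0.0265 with the block). FOX2 lies on chromosome XI with 7 genes between it and VPS1. Of these 7, 2 rose and 1 fell in the same test, in which 6.77% of all genes rose and 6.28% fell. Any effect of the deletion on nearby genes was not tested.

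POT1 had the smallest adjusted p of the 36 genes. It was at 4.78, 4.53 and 5.01 in the deletion strain, against 3.98, 3.66 and 3.97 in wild type, a mean of 4.77 ± 0.24 against 3.87 ± 0.18 (SD, n = 3 each). It rose by 0.90 ± 0.15, or 1.87-fold (adjusted p = 0.00876, and 0.000426 with the block), and by 1.45 ± 0.16 as deposited. The difference ranked at the 97.2th percentile of all genes, and the call held without each of the 6 arrays in turn, with adjusted p of 0.00882 to 0.0354 and differences of 0.78 to 1.00. The wild type signal lay close above the background level of 3.53 to 3.59, where a log2 difference can understate the change. The change of POT1 exceeded that of FOX2 by 0.61 on both scales, without overlap between strains (exact 2-sided permutation p = 0.1, the smallest possible), and that of POX1 by 0.60 with overlap (exact permutation p = 0.2). These pairs were chosen after their values were seen, with POT1 the gene of the largest difference among the 36, so these p-values add no support. FOX2, at 9.03 to 9.41, lay far above background where POT1 did not, so their log2 changes may not be comparable.

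**Figure D3:**
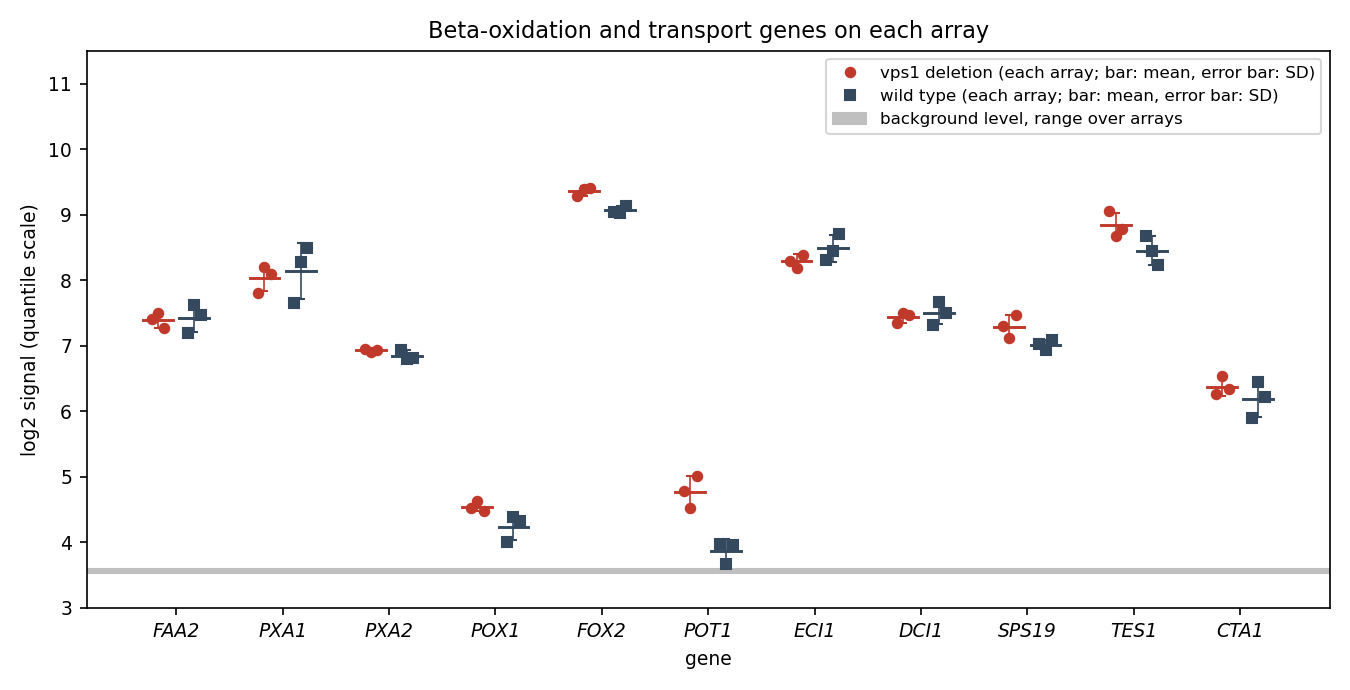
Points are the log2 signals on the quantile scale of the 11 beta-oxidation and transport genes on each array, vps1 deletion left of wild type for each gene, with bars for the mean, error bars for the SD over 3 arrays and a grey band for the background level of the 6 arrays. POT1 and POX1 lie nearest the band, at 3.66 to 5.01 and 4.00 to 4.63; levels of different probe sets are not comparable with each other.

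Of the auxiliary enzymes of unsaturated fatty acids, SPS19, a dienoyl-CoA reductase, was at 7.30, 7.11 and 7.46 in the deletion strain, against 7.03, 6.93 and 7.09 in wild type. Its difference of 0.28 ± 0.11 did not pass (adjusted p = 0.16), but did with the block (0.0374). The isomerase genes ECI1 and DCI1 differed by -0.20 ± 0.13 (adjusted p = 0.347) and -0.062 ± 0.11 (adjusted p = 0.778), below 0 where SPS19 was above it. TES1, the peroxisomal thioesterase, was at 9.05, 8.67 and 8.79 in the deletion strain, against 8.67, 8.44 and 8.23 in wild type, a difference of 0.39 ± 0.15 (adjusted p = 0.133, and 0.0176 with the block). CTA1, the peroxisomal catalase that removes the hydrogen peroxide made by Pox1, was at 6.26, 6.54 and 6.33 in the deletion strain, against 5.90, 6.45 and 6.22 in wild type, a difference of 0.19 ± 0.15 (adjusted p = 0.476).

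**Figure D4:**
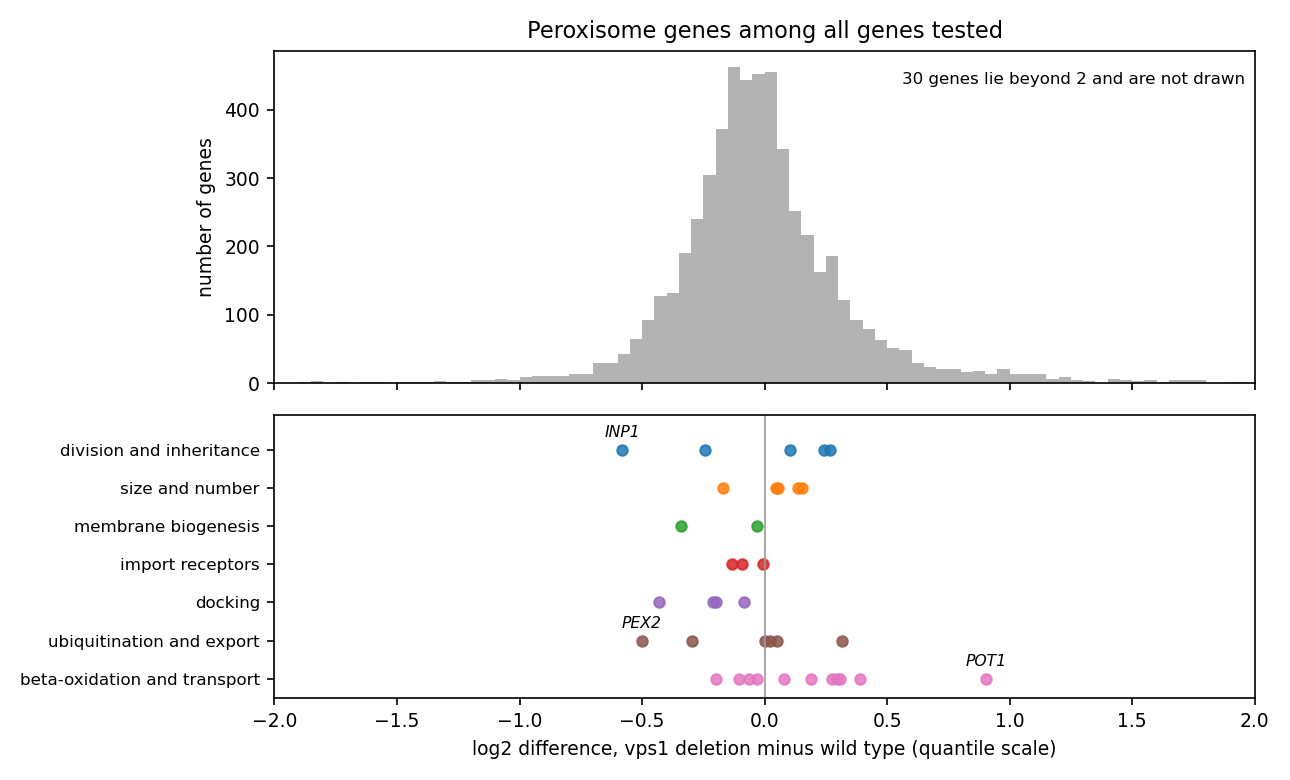
The upper panel counts all 5449 genes by their log2 difference, vps1 deletion minus wild type, on the quantile scale, with 30 genes beyond 2 in either direction not drawn; the lower panel shows the 36 peroxisome genes by role on the same axis. Most of the 36 lie in the body of the distribution, with POT1 at 0.90 to the right and INP1 at -0.58 and PEX2 at -0.50 to the left.

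Other genes tied to peroxisomes were taken from a list chosen by name, of which 42 were analysed here. Of the 42, 2 rose and 1 fell, against 13.0% of all genes passing, and their median difference was 0.059. With the block 12 passed, 6 in each direction, against 30.8% of all genes. Neither count exceeds the share of all genes. CIT2, the peroxisomal citrate synthase and a target of retrograde signalling, was at 12.49, 12.45 and 12.42 in the deletion strain, against 11.89, 11.56 and 11.30 in wild type, and rose by 0.87 ± 0.15 (adjusted p = 0.00984). ATG8, the ubiquitin-like protein of autophagosomes, which also serves the breakdown of peroxisomes, was at 9.34, 9.33 and 9.46 in the deletion strain, against 8.99, 8.67 and 8.64 in wild type. It rose by 0.61 ± 0.12 (adjusted p = 0.0165), a call that ended when wild type replicate 2 (0.0689) or vps1 deletion replicate 1 or 3 (0.0548 and 0.0747) was left out, and with median centring (0.0593). FAA4, a long-chain acyl-CoA synthetase, was at 11.46, 11.66 and 11.34 in the deletion strain, against 12.21, 12.28 and 11.97 in wild type. It fell by 0.67 ± 0.13 (adjusted p = 0.0147). This call ended when wild type replicate 2 (0.0613) or vps1 deletion replicate 1 or 3 (0.0591 and 0.0654) was left out. As deposited FAA4 differed by -0.15 ± 0.13 (adjusted p = 0.315). In the fits without an array that ended the ATG8 or FAA4 call, 5.91% to 6.57% of all genes passed, against 13.0% with all 6 arrays.

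None of the 4 genes of the fission machinery that peroxisomes share with mitochondria passed in limma, and 1 had an unadjusted p under 0.05, where 28.9% of all genes did. DNM1, the other dynamin of peroxisome fission, was at 9.32, 9.52 and 9.41 in the deletion strain, against 9.56, 9.46 and 9.42 in wild type, a difference of -0.064 ± 0.096 with a 95% interval of -0.29 to 0.16. FIS1, its membrane receptor, differed by 0.15 ± 0.14 and the adaptor CAF4 by 0.027 ± 0.098. The adaptor MDV1 had a difference of -0.31 ± 0.12 (adjusted p = 0.133, and 0.0247 with the block). Among regulators of beta-oxidation genes, OAF1, PIP2 and ADR1 had differences of -0.16 ± 0.098, -0.22 ± 0.085 and -0.26 ± 0.10, with adjusted p of 0.325, 0.141 and 0.141. As deposited these 3 lay above wild type by 0.32 to 0.40, less than the median of all genes. None of the 8 regulators passed in limma, where 4 had an unadjusted p under 0.05, and their differences ran from -0.40 for MIG1 to 0.58 for CAT8. With the block 3 of the 8 regulators passed, where 30.8% of all genes did. CAT8, an activator of genes of non-fermentable carbon use, was higher (adjusted p = 0.0124, and 0.0531 without the block). SNF4, the activating subunit of the Snf1 kinase, was lower (0.0218, and 0.0634 without the block). MIG1, a glucose repressor, was also lower (0.0126), but its difference of -0.40 ± 0.26 had an adjusted p of 0.375 without the block. SNF1 itself differed by 0.11 ± 0.11 and did not pass in either fit.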

How the data were processed

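The authors deposited 1 table of log2 signals, 10928 probe sets by 6 arrays. Per the submitters' processing notes GCOS, RMA and limma were used; their versions and settings are not given in those notes. Per the labels' protocols, 100 ng of total RNA went into each biotinylated cRNA. Of the probe sets, 5498 matched a yeast gene of the RefSeq R64 table by gene ID, 1746 carried other names and 3517 none besides 166 controls; 47 genes with several probe sets were represented by the highest mean. All probe sets were quantile normalised over the 6 arrays and fitted with limma 3.58.1 in R 4.3.3 (2-sided, 3 against 3 arrays, Benjamini-Hochberg over 5449 genes). The limma fit was tested on simulated data with independent errors for each array. Those data held neither the shift between strains nor deviations shared by arrays of the same replicate number. Arrays have no read depth, so their number limits the precision. For replicates 1, 2 and 3 of the labels, the deviations of both strains' arrays from their strain means correlated over genes at 0.67, 0.65 and 0.29, so the block was used beside the unblocked fit. Named in full were genes past the threshold and a list of division, receptor, core enzyme, fission and regulator genes; others are given in addition. The members, lists and the quantile scale were chosen with earlier results of these data known. No sequences were used here.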

Additional observations from a re-analysis of the deposited data

How the results depend on the processing

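Alternatives were the values as deposited, median centring, cyclic loess, the replicate number as a block, a filter on dim genes, the mean over probe sets, a variance trend with robust fitting, and leaving out each array. As deposited 29 peroxisome genes passed, 29 higher and 0 lower in limma, where 1 had a difference below 0. Of the other peroxisome-related genes 33 passed, where 77.0% of all genes did, and the member median was 0.58. With median centring 2 peroxisome genes were lower and 5 other genes passed, where 14.5% of all genes passed and 535 of 5449 were lower. The member median was then -0.076, where the median of all genes was -0.15. With cyclic loess the member median was 0.051. With the block 10 passed, 6 higher and 4 lower, and 12 of the other genes, where 30.8% of all genes passed. For genes named in full the block changed no other call than those given beside their values. Leaving out single arrays gave 1 to 3 passing genes, 0 to 2 lower, 1 to 4 other genes and a median of -0.026 to 0.034. In these 6 fits 5.91% to 14.4% of all genes passed, against 13.0% with all arrays. POT1 and CIT2 passed in each of these 6 fits. Of the 36 differences, 17 changed sign as deposited, 6 with median centring and 3 with cyclic loess. Among genes that the naming rule gives in full, sign changes as deposited were INP2 (0.29), PEX3 (0.53), PEX19 (0.20), PEX5 (0.46), PEX7 (0.42), PEX2 (0.044), DNM1 (0.48), MDV1 (0.24), OAF1 (0.40), PIP2 (0.37) and ADR1 (0.32), where the shift of all genes is 0.51. Among the same genes the sign also changed with median centring for PEX25 (-0.017) and CAF4 (-0.072), with cyclic loess for PEX3 (0.022), and without single arrays for CAF4 (-0.012 to 0.088). The cause of these sign changes was not tested. The filter, the mean over probe sets and the variance trend left each count of passing genes at its value. MDV1 passed with median centring (-0.42).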

Other observations

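Within wild type, replicate 1 was the lowest array for 6 of the 11 beta-oxidation and transport genes, replicate 2 for 4 and replicate 3 for 1. Over all 36 genes no array was the lowest of its strain for more than 14 genes or fewer than 10. For the control probe sets at both ends of a transcript, the signal of the 3' end minus that of the 5' end was 0.48 ± 0.15 in the deletion strain and 0.41 ± 0.14 in wild type for ACT1, 2.04 ± 0.19 and 2.04 ± 0.12 for SPT15, and 3.12 ± 0.43 and 2.51 ± 0.30 for SRB4 (log2, SD, n = 3 each). The part of RNA integrity in the differences of peroxisome genes was not tested.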
